A study of Mus musculus with 12 samples.

Results

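The genes that write, copy, guide or remove DNA methylation were followed through 12 teratomas grown from R1 mouse embryonic stem (ES) cells. They were chosen by name, Dnmt3l, Dnmt1, Dnmt3a, Dnmt3b, Uhrf1, Tet1, Tet2, Tet3, Tdg and Trim28, and all 10 were found among the 38986 genes listed for each library. R1 is a line of pluripotent cells from the early mouse embryo, and a teratoma is the mixed tumor that such cells form when they differentiate in a host. The ES cells were kept in serum with LIF and carried a stable lentiviral pEZ-Lv235 construct with a CAG promoter, which is active in most cell types. In the control group (ET) the vector was empty, in the WT group it carried WT Dnmt3L, and in the other groups it carried the acetylation-deficient mutants K238R and K412R, in which a lysine is replaced by arginine. In every group the cells were injected under the skin of 8-week-old male immunodeficient NOD-PrkdcEM1 mice, teratomas were collected at day 21, and 3 libraries per group were sequenced from their RNA. The titles only number the libraries of a group, so p-values measure the spread between these samples. Host and graft are both mouse, and reads from host blood vessels and stroma cannot be told apart from those of the graft.

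Methyl groups are set on cytosine by Dnmt3a and Dnmt3b, the de novo methyltransferases. Dnmt3l has no catalytic activity of its own but binds both and stimulates them, and it is best known from germ cells and early embryos. After each round of DNA replication Uhrf1 binds hemimethylated sites and recruits Dnmt1, which copies the mark to the new strand. Tet1, Tet2 and Tet3 oxidise methylcytosine, and Tdg excises the oxidised bases so that repair can put back an unmodified cytosine. Trim28 is the corepressor that zinc finger proteins bring to imprinted regions and retroelements, where methylation is kept through early development.

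The mutated lysines are shown here by their place in the reference transcript Dnmt3l-201 of GENCODE M21, because the groups are named after them. On build GRCm38, plus strand, the K238 codon lies at chr10:78054977-78054979 in exon 9 of 13, and the K412 codon lies at chr10:78063317-78063319 in the last exon. The lines run 5′ to 3′ with 24 bases on either side, and capitals mark the lysine codon of the unmutated sequence.
K238: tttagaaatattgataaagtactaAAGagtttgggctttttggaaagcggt
K412: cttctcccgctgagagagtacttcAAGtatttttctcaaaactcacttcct
Counts per gene do not show which codon a read carried, so they measure the sum of the construct and the endogenous gene.

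Depth was even, with total counts between 16957677 and 18546100 per library, and the noncoding RNA Gm26917 took between 7.47% and 13.9% of them. Levels are given as CPM, the count of a gene scaled to the total count of its library. Fold changes come from edgeR's quasi-likelihood test over 18405 genes with enough counts, with p-values adjusted over all of them by Benjamini and Hochberg's method and a threshold of 0.05. All 10 members passed the filter on low counts. Markers of neurons, muscle, and epithelium and endoderm were read in all 12 libraries, with summed levels from 2220 to 4014 CPM, from 35.6 to 3265 CPM and from 210 to 417 CPM. The muscle sum was 399, 3265 and 1657 CPM in WT, from 136 to 537 CPM in ET and no higher than 737 CPM in the other groups. The neural sum was 3068, 3796 and 4014 CPM in WT and from 2310 to 3142 CPM in ET. WT replicates 2 and 3 were thus the 2 highest libraries for both sums. The single markers did not all go that way. Of 10 neural markers, 7 had a log2 fold change above 0 in WT against ET and 3 below. By edgeR 5 of them were higher and 2 lower at an unadjusted p under 0.05, beside 14% and 15.1% of all genes. Of 10 muscle markers, 8 were above 0 and 2 below, with 1 higher and 0 lower by that criterion. Libraries of a group did not always lie together, and results that rest on single libraries are given with and without them.

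Dnmt3l, the gene on the constructs, was read first as a check of the labels. It stood at 2.22, 0.649 and 7.62 CPM in ET and at 165, 203 and 204 CPM in WT. In K412R it was read at 38.9, 38.3 and 26.0 CPM. The K238R-labelled libraries held 1.89, 1.11 and 0.543 CPM, within or below the range of ET, so their transcript went against the label, and they are called the K238R-labelled libraries throughout. All WT libraries lay above all K412R libraries, and these lay above all libraries of the other groups. In WT the Dnmt3l transcript was 5.78 higher than in ET on the log2 scale (standard error 0.61, adjusted p = 0.0192, edgeR). It was 2.49 higher in WT than in K412R (log2 fold change of K412R against WT -2.49, standard error 0.50, adjusted p = 0.0367), and the K238R-labelled libraries differed from WT by -7.37 (standard error 0.68, adjusted p = 0.00251). K412R lay between the WT libraries and all others. Between K412R and ET the log2 fold change was 3.29 (standard error 0.57) and missed the threshold (adjusted p = 0.219 with edgeR), although it passed with DESeq2 (3.30, adjusted p = 0.00471) and when ET replicate 2 (2.83, adjusted p = 0.0298) or ET replicate 3 (4.60, adjusted p = 0.0291) was left out. Those 3 fits called 0.524%, 1.51% and 0.00532% of all genes in that comparison. Between K412R and the K238R-labelled libraries the log2 fold change was 4.89 (standard error 0.65, adjusted p = 0.0463).

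The call of Dnmt3l between WT and ET rested on the spread of few libraries. It was lost without ET replicate 1, WT replicates 2 or 3, replicates 1 or 2 of the K238R-labelled libraries or K412R replicate 1, while the log2 fold change stayed between 5.30 and 7.08 with any 1 library left out. The call between K412R and WT was lost without ET replicate 1, WT replicates 2 or 3, or any 1 of the K412R libraries (log2 fold change between -2.59 and -2.28). Between K412R and the K238R-labelled libraries it was kept in only 2 of 12 such fits, those without ET replicate 2 or 3 (log2 fold change over the 12 fits between 4.55 and 5.40), and it was lost under each other scaling tried. The difference between WT and the K238R-labelled libraries passed the threshold in all 12 fits that left out 1 library, at adjusted p-values up to 0.0420.

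Set against its partners, Dnmt3l made up 41.4%, 46.2% and 47.2% of the counts of the Dnmt3 genes (Dnmt3a, Dnmt3b and Dnmt3l together) in the WT libraries. Its share was 15.2%, 15.7% and 9.44% in K412R. It lay between 0.257% and 2.71% in ET and between 0.229% and 0.846% in the K238R-labelled libraries. These shares are of counts and are not corrected for transcript length.

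**Figure D1:**
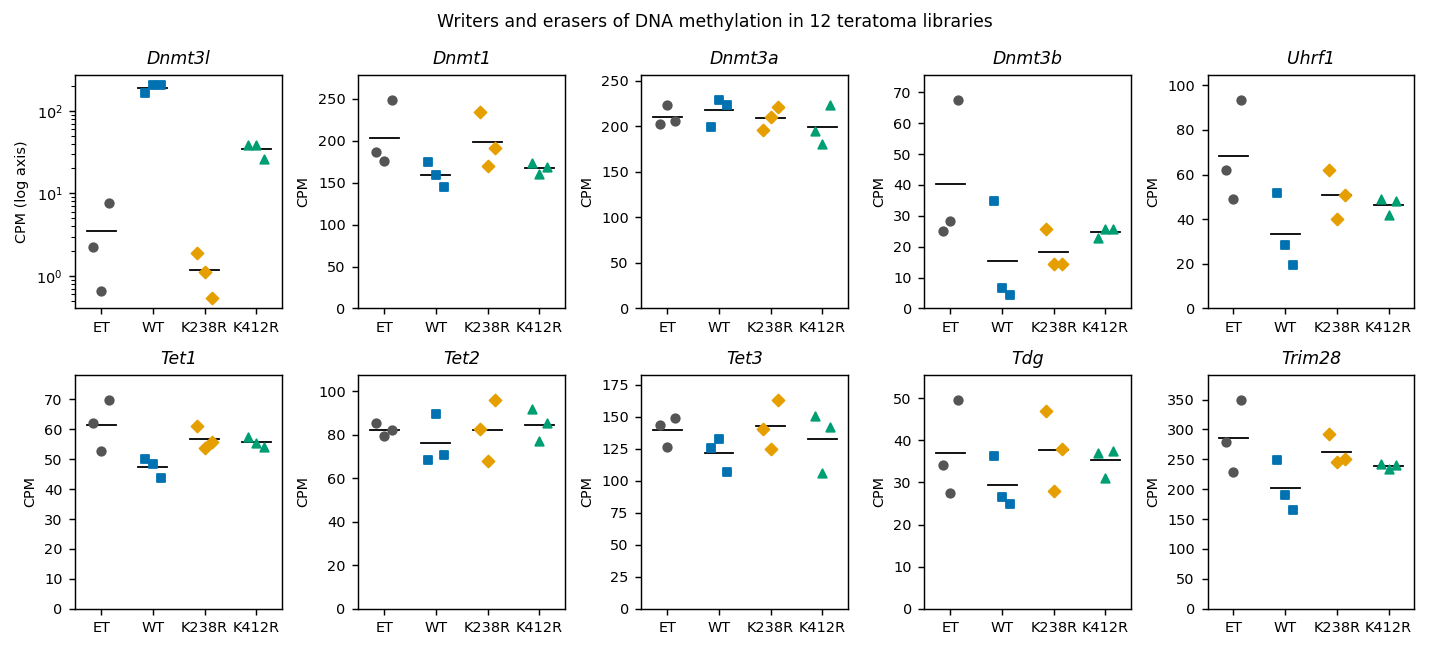
Level of each of the 10 genes in CPM of the library total in the 12 libraries, by the group in the label. Points are single libraries in the order of their replicate numbers and bars are means of 3. The Dnmt3l axis is logarithmic and the others start at 0. The WT libraries of Dnmt3l lie between 165 and 204 CPM, while Dnmt3a stays between 180 and 229 CPM in all groups.

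With edgeR, no member but Dnmt3l passed the threshold in any of the 6 pairwise comparisons or the test of any difference among the groups. This gave 1 of 10 members between WT and ET, where 0.0489% of all genes tested were called. It gave 1 of 10 between the K238R-labelled libraries and WT (0.223% of all genes) and 1 of 10 between K412R and WT (2.04% of all genes). The count was 1 of 10 between K412R and the K238R-labelled libraries (0.0217% of all genes) and 1 of 10 among the groups (0.168% of all genes). Against ET no member and no gene (0%) was called in the K238R-labelled libraries or in K412R, with 1032 (5.61%) and 1456 (7.91%) genes at an unadjusted p under 0.05 and 14 and 89 genes called by DESeq2. In WT against ET, 1 member was higher and 4 were lower at an unadjusted p under 0.05 (Uhrf1, Tet1, Trim28 and Dnmt1), beside 14% and 15.1% of all genes. DESeq2 called 4 members in WT against ET, namely Dnmt3l, Uhrf1, Tet1 and Trim28, beside 11.6% of all genes. The median log2 fold change of the 10 members in WT against ET was -0.33 with edgeR, and that of all genes tested was -0.01.

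Dnmt3a, which sets methylation in somatic tissues as well as in the germ line, was the steadiest member. It was read at 203, 224 and 206 CPM in ET, 199, 229 and 224 CPM in WT, 196, 211 and 222 CPM in the K238R-labelled libraries and 194, 180 and 223 CPM in K412R. All 4 groups overlapped, and the highest library held 1.27 times the level of the lowest. WT differed from ET by 0.07 on the log2 scale, with a 95% confidence interval from -0.14 to 0.28 (adjusted p = 0.617, edgeR).

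Dnmt3b, the de novo enzyme of ES cells and the early embryo, varied most among the members without a construct. In ET it stood at 25.0, 28.4 and 67.7 CPM, and in WT at 34.8, 6.69 and 4.34 CPM. WT replicate 1 thus lay within the range of ET, and the other WT libraries lay below every other library of the study. In the K238R-labelled libraries it was 25.6, 14.5 and 14.5 CPM, and in K412R 22.8, 25.7 and 25.8 CPM. WT differed from ET by -1.41 on the log2 scale (95% confidence interval -2.82 to 0.00, adjusted p = 0.172), and without WT replicate 1 it was -2.84 (adjusted p = 0.0266, edgeR, with 6.97% of all genes called in that fit). Without the same library K412R lay above WT by 2.13 (adjusted p = 0.0330, with 5.37% of all genes called), against 0.70 with it (adjusted p = 0.527). Of the counts of Dnmt3a and Dnmt3b together, Dnmt3b gave 10.9%, 11.3% and 24.8% for the ET libraries and 14.9%, 2.83% and 1.90% for the WT libraries. The K238R-labelled libraries had 11.6%, 6.44% and 6.13%, and those of K412R 10.5%, 12.5% and 10.3%. In bulk tissue, fewer cells that express a gene and less RNA of it per cell cannot be told apart.

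Pluripotency markers moved with Dnmt3b. The summed level of 12 such markers was 121, 126 and 251 CPM in ET and 124, 40.8 and 32.6 CPM in WT. It was 116, 105 and 78.6 CPM in the K238R-labelled libraries and 106, 111 and 94.7 CPM in K412R. The same library was highest for both measures, and the same pair of WT libraries was lowest. Of the 12 markers, 11 had a log2 fold change below 0 in WT against ET (median -1.85), 5 of them at an unadjusted p under 0.05 and none past the adjusted threshold. Dnmt3b amounted to between 13.3% and 28.2% of the marker sum over the 12 libraries. The WT libraries lowest in Dnmt3b, replicates 2 and 3, were those highest in the muscle and neural sums. The part of these markers in the level of Dnmt3b was not tested.

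Among the genes of maintenance methylation, Uhrf1 spread far more than Dnmt1. Uhrf1 stood at 62.3, 49.0 and 93.6 CPM in ET and at 51.6, 28.5 and 19.4 CPM in WT. The groups overlapped, since WT replicate 1 lay above ET replicate 2. In the K238R-labelled libraries it was 62.1, 39.9 and 51.0 CPM, and in K412R 49.0, 42.0 and 48.1 CPM. The fitted difference of WT from ET was -1.03 in log2 units (standard error 0.31, adjusted p = 0.110, edgeR). It passed the threshold with DESeq2 (-1.03, adjusted p = 0.0217). Leaving out ET replicate 2 (-1.22, adjusted p = 0.0233) or WT replicate 1 (-1.47, adjusted p = 0.0334) had the same outcome. In these fits 11.6%, 30.8% and 6.97% of all genes were called, in that order. Without ET replicate 3 it was -0.72 (adjusted p = 0.404).

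Dnmt1, the enzyme that Uhrf1 recruits, was read at 187, 176 and 249 CPM in ET, 175, 159 and 145 CPM in WT, 234, 170 and 191 CPM in the K238R-labelled libraries and 173, 160 and 169 CPM in K412R. Every WT and every K412R library lay below every ET library, but the gap to ET replicate 2 was small. For K412R it was lost on rescaling. With TMM-scaled CPM, K412R replicate 1 was at 176.8 CPM and ET replicate 2 at 174.2 CPM. With Gm26917 left out of the total they were at 196.4 and 195.6 CPM. The WT libraries stayed below ET under both. In K412R against ET 5.74% of all genes lay lower without overlap. WT differed from ET by -0.33 on the log2 scale (95% confidence interval -0.65 to -0.01, adjusted p = 0.161), and K412R by -0.28 (-0.60 to 0.04, adjusted p = 0.663). Only without ET replicate 2 did the former pass the threshold (-0.42, adjusted p = 0.0457, edgeR, with 30.8% of all genes called). The level of Uhrf1 as a share of that of Dnmt1 was 33.3%, 27.9% and 37.6% in ET and 29.5%, 18.0% and 13.4% in WT. In the K238R-labelled libraries it was between 23.5% and 26.7%, and in K412R between 26.2% and 28.5%.

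Proliferation markers moved with Uhrf1. The summed level of 16 of them was 1816, 1207 and 2661 CPM in ET and 1284, 830 and 680 CPM in WT. The K238R-labelled libraries held 1836, 1053 and 1387 CPM, and K412R held 1421, 1319 and 1381 CPM. All 16 markers had a log2 fold change below 0 in WT against ET, at a median of -0.98, and all 16 had an unadjusted p under 0.05, with none past the adjusted threshold. Uhrf1 stayed between 2.85% and 4.06% of the marker sum over the 12 libraries, whereas Dnmt1 ran from 9.36% to 21.4% of it. Uhrf1 and the marker sum were lowest in WT replicates 2 and 3, the libraries with the most muscle and neural marker RNA. What share of the difference in Uhrf1 goes with these markers was not tested.

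**Figure D2:**
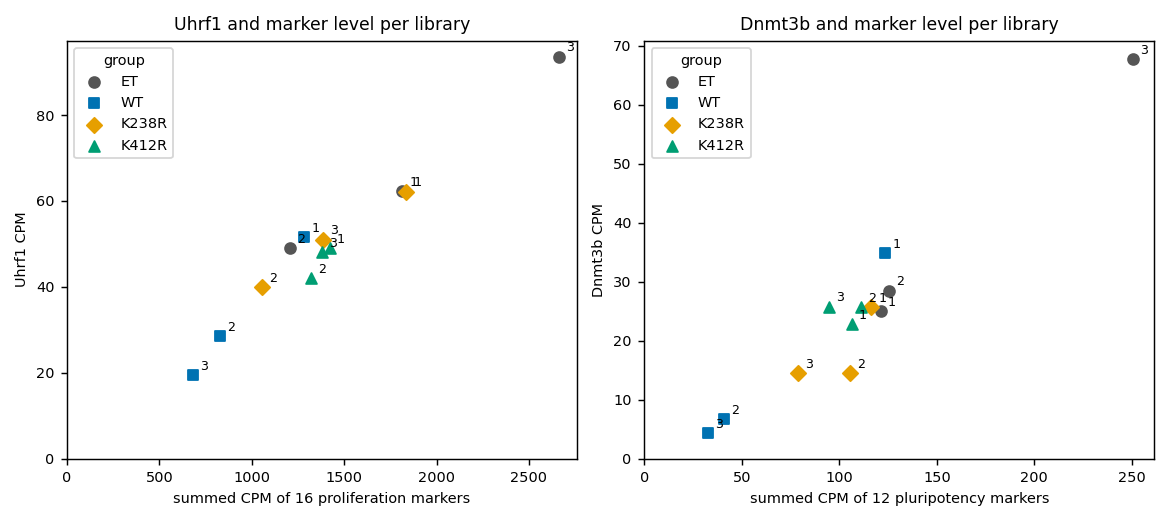
Left, Uhrf1 in CPM against the summed CPM of 16 proliferation markers. Right, Dnmt3b in CPM against the summed CPM of 12 pluripotency markers. Each point is 1 of the 12 libraries, with its replicate number beside it and its labelled group by color and shape. ET replicate 3 lies at the upper end of both plots and WT replicates 2 and 3 at the lower end, while WT replicate 1 lies beside ET replicate 2.

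Among the erasers, Tet1, the dioxygenase of pluripotent cells and primordial germ cells, was read at 62.2, 52.7 and 69.8 CPM in ET and at 50.1, 48.3 and 43.6 CPM in WT. The K238R-labelled libraries held 61.0, 53.7 and 55.8 CPM, and K412R held 57.4, 55.6 and 54.0 CPM. The WT libraries lay below all others. Tet1 and Dnmt1 were the 2 of 10 members whose WT libraries all lay below ET, which 11.4% of all genes tested did. In K412R and in the K238R-labelled libraries, Tet1 was the only member whose libraries all lay above WT, beside 14.4% and 12.7% of all genes. In log2 units the WT libraries differed from ET by -0.36 (standard error 0.11, adjusted p = 0.110, edgeR), and it passed with DESeq2 (-0.35, adjusted p = 0.0461) and after ET replicate 2 was left out (-0.45, adjusted p = 0.00930). Those fits called 11.6% and 30.8% of all genes, in that order. Without ET replicate 3 the difference was -0.24 (adjusted p = 0.404, edgeR). Against WT, the K238R-labelled libraries differed by 0.22 (95% confidence interval -0.02 to 0.46) and K412R by 0.22 (-0.02 to 0.46), with adjusted p-values of 0.315 and 0.258.

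Tet2 and Tet3, the oxidases that many differentiated tissues express, showed no order of the groups. Tet2 ranged from 79.5 to 85.2 CPM in ET, 68.5 to 89.4 CPM in WT, 68.0 to 96.0 CPM in the K238R-labelled libraries and 76.9 to 91.9 CPM in K412R. Tet3 ranged from 126 to 149 CPM, 107 to 132 CPM, 125 to 163 CPM and 106 to 150 CPM in the same order. WT differed from ET by -0.09 for Tet2 (95% confidence interval -0.37 to 0.20) and by -0.18 for Tet3 (-0.47 to 0.12), with adjusted p-values of 0.680 and 0.387. Tet1 gave between 17.7% and 23.3% of the counts of the 3 Tet genes in every library.

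Tdg, the glycosylase that follows the Tet enzymes, was read at 34.1, 27.5 and 49.6 CPM in ET, 36.4, 26.6 and 24.9 CPM in WT, 46.9, 28.1 and 37.9 CPM in the K238R-labelled libraries and 37.0, 31.2 and 37.6 CPM in K412R. The groups overlapped, and WT differed from ET by -0.32 on the log2 scale (95% confidence interval -0.82 to 0.18, adjusted p = 0.348). Its level is uncertain, because a pseudogene row, Tdg-ps2, held more counts than Tdg in every library, between 61.2 and 115 CPM. Tdg took between 25.9% and 31.8% of the counts of both rows together. A near-identical copy can share reads with its parent gene, and how the counting divided them is not given in the sources used here.

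Trim28 had the highest level of the 10 per transcript length when averaged over all libraries. It stood at 279, 230 and 349 CPM in ET and at 249, 190 and 165 CPM in WT. In the K238R-labelled libraries it was 292, 245 and 251 CPM, and in K412R 242, 234 and 241 CPM. WT replicate 1 lay above ET replicate 2, so the groups overlapped, and all K412R libraries lay below all K238R-labelled libraries, as did those of 10.2% of all genes. This separation was lost on rescaling. With TMM-scaled CPM, K412R replicate 1 (247.8 CPM) lay above K238R-labelled replicates 2 (247.0 CPM) and 3 (243.3 CPM). With Gm26917 left out of the total, K412R replicate 1 (275 CPM) again lay above K238R-labelled replicate 3 (271 CPM). The fit put WT at -0.49 from ET in log2 units (standard error 0.16, adjusted p = 0.113, edgeR). It passed with DESeq2 (-0.49, adjusted p = 0.0465) and when either ET replicate 2 (-0.62, adjusted p = 0.0125) or WT replicate 1 (-0.65, adjusted p = 0.0451) was left out. Of all genes, 11.6%, 30.8% and 6.97% were called in these fits, in that order. Without ET replicate 3 the difference of Trim28 was -0.30 (adjusted p = 0.411).

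**Figure D3:**
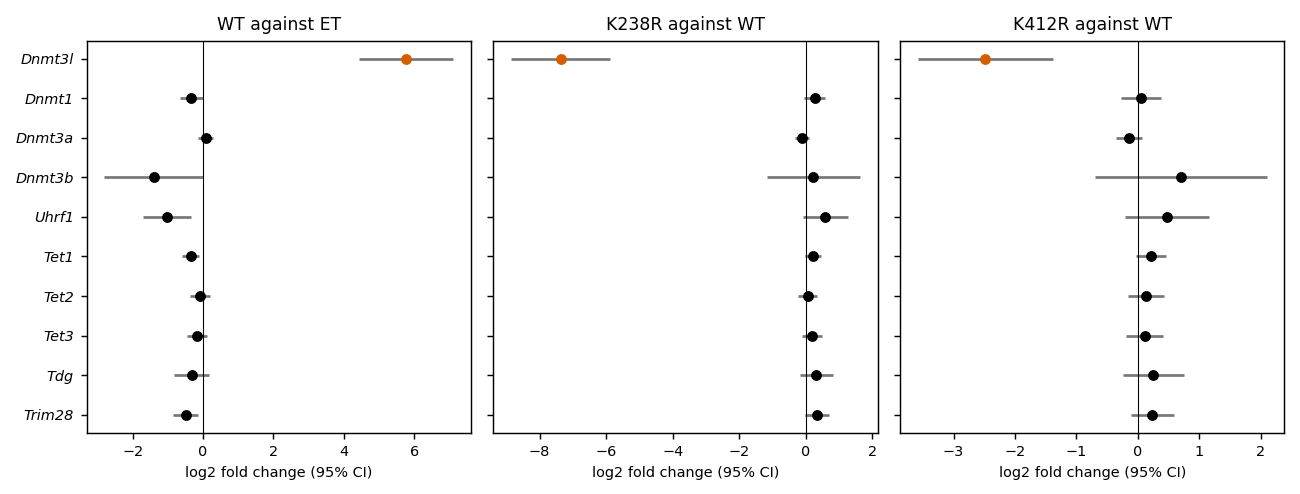
Log2 fold change with its 95% confidence interval for the 10 members in WT against ET, the K238R-labelled libraries against WT and K412R against WT, from edgeR's quasi-likelihood fit over 12 libraries. Orange points passed an adjusted p of 0.05 and black points did not. Dnmt3l is the only orange point in each panel, at 5.78, -7.37 and -2.49.

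The members did not vary independently over the libraries. Dnmt1, Dnmt3b, Uhrf1, Tet1, Tdg and Trim28, 6 of 10, were each highest in ET replicate 3 and lowest in WT replicate 3, which was so for 10.2% of all genes tested. The same 6 varied least in K412R, with coefficients of variation down to 1.95% for Trim28 and 3.09% for Tet1, as did 34.7% of all genes tested. In 8 of 10 members, all but Dnmt3l and Dnmt3a, the WT mean was the lowest of the 4 group means, which held for 39.5% of all genes. The median log2 fold change of the 10 members against WT was 0.23 in the K238R-labelled libraries and 0.18 in K412R, with medians of all genes of 0.00 and 0.01. These comparisons share the WT libraries with that of WT against ET. Of the 16 proliferation markers, all were highest in ET replicate 3 and 15 were lowest in WT replicate 3. The pluripotency markers had 11 and 7 of 12 in the same places, and the germ cell markers 7 and 5 of 10. Over all genes tested 20.3% were highest in the former library and 21.8% lowest in the latter. None of the 8 leukocyte or 6 endothelial markers was highest in ET replicate 3 or lowest in WT replicate 3. The cartilage markers had 0 and 3 of 6 in these places, and the muscle markers 0 and 1 of 10. The neural markers had 1 and 2 of 10, as did those of epithelium and endoderm.

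**Figure D4:**
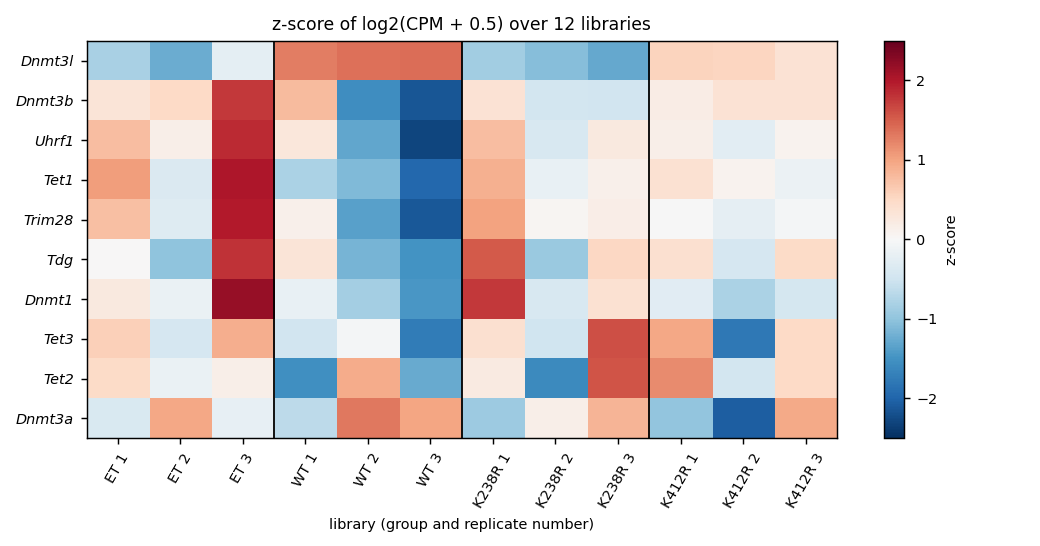
Level of each member in each library as the z-score of log2(CPM + 0.5) over the 12 libraries, on a color scale from blue (low) to red (high), with lines between the labelled groups. Dnmt3b, Uhrf1, Tet1, Trim28, Tdg and Dnmt1 share their highest value in ET replicate 3 and their lowest in WT replicate 3.

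Likeness was taken as the root mean square difference of these z-scores, so that 0 is an identical pattern, among 16417 genes tested with a mean of at least 1 CPM. It is a description over 12 libraries that share their preparation and depth. Uhrf1 was closest to Cdca7, Eme1 and Tead2, at 0.140, 0.143 and 0.145. Trim28 was closest to Incenp (0.171), G3bp1 and Ppih, and Tet1 to Kif22 (0.195), Incenp and Ttk. Dnmt3b was closest to the ribosomal protein genes Rpl10a (0.173), Rpl36a and Rpl19. Dnmt1 lay nearest to Ttll4 (0.261), Mrpl47 and Ahctf1, and Tdg to Oip5 (0.244), Ctdspl2 and Zik1. Tet3 lay nearest to Kdm6b (0.303), Zcchc14 and Gm46650. The remaining members had no gene so near them, with Ccdc6 (0.411), Gm19378 and Uap1 for Dnmt3a, Gm8350 (0.435), Phf2 and Mbd5 for Tet2, and Pcdhga1 (0.448), Itgb7 and Gm52239 for Dnmt3l. With TMM-scaled CPM 1 of the 3 genes named for Dnmt3a stayed among its 3 nearest, and 2 or 3 did for every other member. Within the members, Uhrf1 and Trim28 were the closest pair at 0.223, and Tet1 and Dnmt3l the most distant at 1.76.

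Per kilobase of the longest coding transcript in GENCODE M21, the mean over 12 libraries fell from Trim28 (76.2 CPM per kb) to Dnmt1 (31.1), Dnmt3a (21.6), Uhrf1 (13.9), Tet3 (12.3), Tdg (9.94), Tet2 (8.86), Dnmt3b (5.70) and Tet1 (3.85). The range of Trim28 (50.9 to 108 CPM per kb) and that of Dnmt1 (24.7 to 42.4) overlapped with no neighbour below them. Dnmt3a overlapped with Uhrf1, whose libraries ran from 5.41 to 26.1 CPM per kb, and the neighbours from Uhrf1 to Tet1 also overlapped in their ranges. Dnmt3l, on the length of its own longest transcript, was at 105 CPM per kb in WT, 18.9 in K412R, 1.92 in ET and 0.648 in the K238R-labelled libraries. The construct carries the open reading frame alone, so its length is overstated there.

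All 10 members had promoter windows in RefSeq on build GRCm38.p6, taken here as the 250 bases before each annotated start, 17 windows in all. The ratio of observed to expected CpG had a median of 0.37 over 32851 windows. The 3 windows of Dnmt3l were at 0.27, 0.25 and 0.13, below that median, and of the other members only 1 window of Dnmt1 (0.13) was. The 6 members that were highest in ET replicate 3 and lowest in WT replicate 3 shared these places with most proliferation markers. The windows were therefore searched for TTTCGCGC, a motif bound by E2F factors, on both strands. It was in 0.256% of all windows and in 2 of the 17, those of Dnmt1 and Uhrf1. Of the members with the shared places, Dnmt3b, Tet1, Tdg and Trim28 had no match. The motif was chosen after those places were seen, and windows of the proliferation markers were not counted apart. Any part of the motif in the levels was not tested. Both sites are shown with 11 bases on either side, on the strand of the gene, and capitals mark the motif or its reverse complement.
Dnmt1, chr9:20952835-20952842, minus strand: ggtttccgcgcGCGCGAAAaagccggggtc
Uhrf1, chr17:56304128-56304135, plus strand: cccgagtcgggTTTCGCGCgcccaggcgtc
The Dnmt1 site lies 219 bases before the start of its window's transcript and within the 5′ UTR of another Dnmt1 transcript in GENCODE M21. The Uhrf1 site lies 185 bases before a start and in an intron of longer Uhrf1 transcripts. A match is a description of the letters and not of binding.

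The wider pathway was read from 8 lists with 75 genes, of which 70 were tested. None of them passed the adjusted threshold in WT against ET with edgeR. In the pairwise comparisons and the test among the groups the only call was 1 of 70 in K412R against WT, where 2.04% of all genes were called, so the share is no higher than over all genes. It was Idh1, the cytosolic isocitrate dehydrogenase that makes the 2-oxoglutarate used by Tet enzymes. Idh1 was at 163 ± 4.28 CPM (SD, n = 3) in ET, 194 ± 17.3 CPM in WT, 189 ± 15.6 CPM in the K238R-labelled libraries and 126 ± 3.89 CPM in K412R. It fell in K412R against WT by 0.64 on the log2 scale (log2 fold change -0.64, standard error 0.10, adjusted p = 0.0117). Against ET, K412R differed by -0.36 (adjusted p = 0.418). The call against WT was lost without WT replicates 2 or 3 or K412R replicates 1 or 3, at log2 fold changes between -0.64 and -0.55 and adjusted p-values up to 0.0770.

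At an unadjusted p under 0.05 in WT against ET, 15.1% of all genes tested were lower and 14% higher, and the counts of the lists stand beside these shares. By that criterion the list of maintenance partners had 7 of 8 genes lower and none higher, with a median log2 fold change of -0.57. Its largest difference was that of Dppa3, a maternal and germ cell factor that limits Uhrf1, at -2.29 (standard error 0.90, adjusted p = 0.135) and 2.50 ± 1.88 CPM in ET against 0.51 ± 0.63 CPM in WT. Base excision repair had 6 of 14 lower (median -0.37), led by Ung, the uracil glycosylase, at -0.96 (standard error 0.30, adjusted p = 0.110). Trim28 partners had 3 of 8 lower (median -0.26), led by the heterochromatin protein gene Cbx1 at -0.53 (adjusted p = 0.149). Tet partners had 3 of 7 lower and 1 higher (median -0.22), led by the corepressor Sin3a at -0.60 (adjusted p = 0.104).

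De novo partners and related methyltransferases had 3 of 6 lower (median -0.14), led by the deacetylase gene Sirt1 at -0.58 (adjusted p = 0.134), and the methyl donor supply had 3 of 9 lower (median -0.24), led by Shmt1 of the folate cycle at -0.93 (adjusted p = 0.158). The 7 methyl-CpG readers had none lower or higher (median -0.01), and the largest difference was that of Zbtb4 at 0.41 (standard error 0.19, adjusted p = 0.175). Germline genes that promoter methylation is known to silence had 6 of 11 lower and none higher, at a median of -1.10. Dazl, an RNA-binding protein of germ cells, was at 20.8 ± 15.9 CPM in ET, 1.58 ± 2.05 CPM in WT, 11.5 ± 2.65 CPM in the K238R-labelled libraries and 5.16 ± 2.41 CPM in K412R, with a log2 fold change of WT against ET of -3.71 (standard error 0.92, adjusted p = 0.100). Each of the 8 genes named here for the largest difference of its list passed the threshold without ET replicate 2 or without WT replicate 1, fits in which 30.8% and 6.97% of all genes were called. With DESeq2, which called 11.6% of all genes, 3 of the 8 passed, namely Dazl (adjusted p = 0.0104), Sin3a (0.0203) and Ung (0.0356). Without ET replicate 3 none of the 8 did. Germ cell markers in the same libraries summed to between 32.2 and 140 CPM in ET and between 16.6 and 33.1 CPM in WT, and their part in this was not tested.

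**Figure D5:**
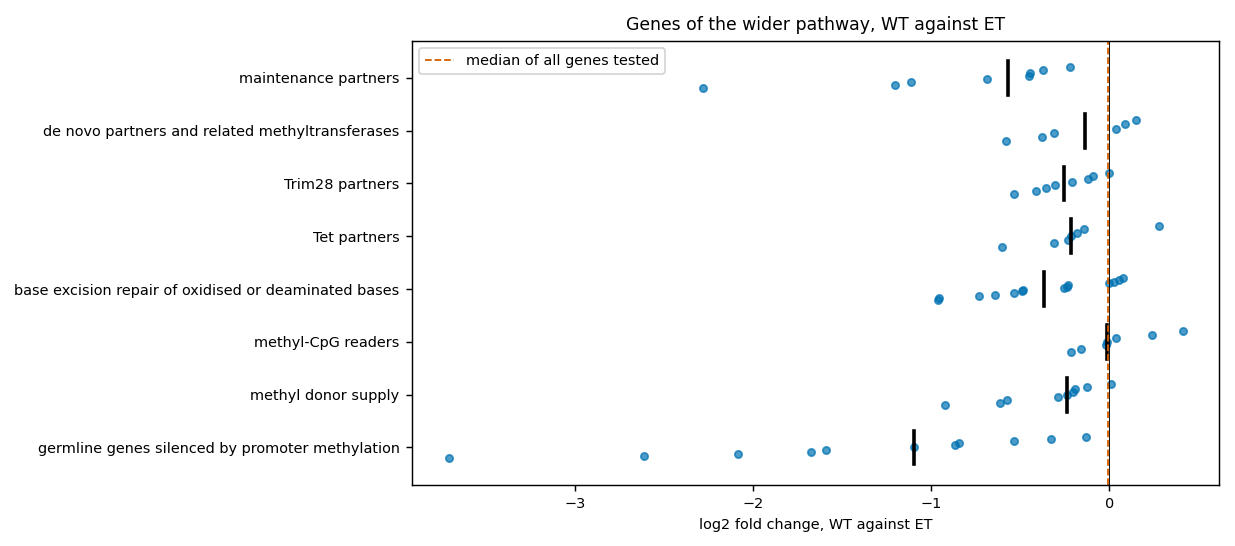
Log2 fold change of WT against ET for each tested gene of the 8 pathway lists. Points are genes, spread vertically for view, black bars are list medians and the dashed line is the median of all genes tested (-0.01). Medians run from -1.10 for the germline genes to -0.01 for the methyl-CpG readers, and no point passed the adjusted threshold.

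Compared with WT, the pathway list with the most genes at an unadjusted p under 0.05 differed by group. It was that of the germline genes in the K238R-labelled libraries and that of the Tet partners in K412R. In the K238R-labelled libraries 9 of the 11 germline genes were higher than in WT by that criterion (median log2 fold change 1.32), beside 7.93% of all genes tested. In K412R 1 of 11 was higher (median 0.46), beside 10.2% of all genes. The germ cell markers, which share Dazl, Ddx4 and Sycp3 with that list, moved with it. Of these 10 markers, 7 were higher in the K238R-labelled libraries (median 1.16), with sums from 72.3 to 75.4 CPM against 16.6 to 33.1 CPM in WT, and 3 in K412R (median 0.89), with sums from 39.3 to 55.6 CPM. Their part in the germline genes was not tested. The 7 Tet partners had 3 higher in the K238R-labelled libraries (median 0.24), and 4 higher and 1 lower, Idh1, in K412R (median 0.24), where 12.5% of all genes were lower. The remaining lists had at most 2 genes higher and 1 lower in either comparison. None of the 8 maintenance partners reached an unadjusted p under 0.05 in either, although all 8 had a log2 fold change above 0 in both (medians 0.33 and 0.31). Between K412R and the K238R-labelled libraries, 6 of the 11 germline genes were lower in K412R by that criterion and 0 higher (median -0.97). This stood beside 4.82% of all genes tested, and none of the 11 passed the adjusted threshold. Of the 10 germ cell markers, 1 was lower and 0 higher (median -0.52). Each other pathway list had at most 1 gene higher or lower in that comparison.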

How the data were processed

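RNA from 12 teratomas was read as CORALL poly(A) libraries from both ends. The authors used fastp for trimming, STAR for mapping and Salmon for quantification, and deposited estimated counts per gene, as whole numbers and without normalization. The submitters' processing notes also name GATK and the build GRCm39; the annotation is not given in the sources used here. The deposited expected counts of 12 libraries were scaled by TMM and tested with edgeR 4.0.16 (quasi-likelihood, robust, 1 mean per group, filterByExpr, 18405 genes, Benjamini-Hochberg). The study's methods name DESeq2, which was run as an alternative (version 1.42.0), as were other scalings, no filter, pairs of groups, a replicate block and leaving out each library. Scripts were tested on simulated data. Intervals are at 95%, and z-scores used a pseudocount of 0.5.

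Members and gene lists were chosen with earlier results of these data known. All members were named, together with pathway genes past the threshold, the gene of each list with the largest difference between WT and ET at a mean of at least 1 CPM, and the 3 genes most like each member. Dnmt3c, which belonged to the list of de novo partners, and protein sequences were not analysed here.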

Additional observations from a re-analysis of the deposited data

How the results depend on the processing

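The numbers of calls moved with single libraries and with the tool more than the fold changes did. With any 1 library left out, members called ran from 0 to 5 between WT and ET (genes 0 to 5784), 0 to 2 between K412R and WT (genes 10 to 1526), 0 to 1 between K412R and ET (genes 0 to 284), 0 to 1 between K412R and the K238R-labelled libraries (genes 0 to 208) and 1 to 2 among the groups (genes 1 to 3517). Between the K238R-labelled libraries and WT members called stayed at 1 while genes ran from 2 to 812. The highest numbers of genes were all reached without ET replicate 2.

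DESeq2 called 4 members and 1922 genes between WT and ET, 786 genes between the K238R-labelled libraries and WT, 1675 between K412R and WT, 14 between the K238R-labelled libraries and ET, 1 member and 89 genes between K412R and ET, 384 genes between K412R and the K238R-labelled libraries and 2013 genes among the groups. In fits of 2 groups alone, 0 members and 0 genes were called between WT and ET, 385 genes between the K238R-labelled libraries and WT, 1877 between K412R and WT and 66 between K412R and the K238R-labelled libraries. Without a filter on low counts the genes called were 34, 69, 1 and 161 between WT and ET, the K238R-labelled libraries and WT, K412R and ET, and among the groups, and 0 members were called between K412R and WT or the K238R-labelled libraries. Scaling by library total gave 5 genes between WT and ET, 17 between the K238R-labelled libraries and WT and 11 among the groups, and without Gm26917 it gave 56 among the groups. Both, and DESeq2 size factors, gave 0 members and 0 genes between K412R and the K238R-labelled libraries. Without the K238R-labelled libraries, an alternative chosen after seeing the data, 0 members and 0 genes were called between WT and ET, and 0 members and 137 genes between K412R and WT. The cause was not tested.

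Whether the replicate numbers pair the libraries is not given in the titles, and the values below did not settle it. Deviations of same-numbered libraries correlated between -0.33 and 0.48, over 0.1 in 9 of 18 pairs, and 6 of 12 libraries correlated best with their own number. With the replicate block, 926 genes were called between WT and ET, 203 between the K238R-labelled libraries and WT, 1131 between K412R and WT, 260 among the groups, and 0 genes and 0 members between K412R and the K238R-labelled libraries.

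Of 1170 fold changes of members under an alternative, 1089 kept their direction and side of the threshold, 14 passed it anew, 31 lost it and 36 changed sign. All sign changes were of fold changes that had not passed the threshold. Tdg in the K238R-labelled libraries against ET was 0.021 by library total, 0.020 by library total without Gm26917 and 0.0049 in the 2 groups alone, and Tet1 in K412R against the K238R-labelled libraries was 0.0010 without Gm26917 and 0.014 in the 2 groups alone. With 1 library left out, log2 fold changes that crossed 0 ran from -0.22 to 0.0011 for Tet2 between WT and ET. Between the K238R-labelled libraries and WT they ran from -0.20 to 1.66 for Dnmt3b and -0.047 to 0.20 for Tet2, and between K412R and WT from -0.0064 to 0.23 for Tet3. Between the K238R-labelled libraries and ET they ran from -0.20 to 0.12 for Dnmt1, -0.060 to 0.025 for Dnmt3a, -0.12 to 0.087 for Tet2, -0.071 to 0.087 for Tet3, -0.19 to 0.28 for Tdg and -0.27 to 0.043 for Trim28. Between K412R and ET they ran from -0.029 to 0.10 for Tet2, -0.18 to 0.054 for Tet3 and -0.22 to 0.21 for Tdg. Between K412R and the K238R-labelled libraries they ran from -0.25 to 0.054 for Uhrf1, -0.040 to 0.063 for Tet1, -0.038 to 0.20 for Tet2, -0.20 to 0.041 for Tet3 and -0.23 to 0.12 for Tdg. Group levels moved by less than 1 SD in 61 of 80 cases when rescaled. With 3 libraries per group and the spread of ET and WT, differences of the size of those of Dnmt3b were not resolved.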
